A study of Homo sapiens with 4 samples.

Results

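The proteasome is the barrel-shaped protease that degrades proteins marked with ubiquitin. Its 20S core is built from rings of alpha subunits (PSMA genes), which gate the entrance, and beta subunits (PSMB genes), some of which cut the protein chain. The 19S regulatory particle caps the core. Its ATPases (PSMC genes) unfold substrates and its non-ATPase subunits (most PSMD genes) bind and remove ubiquitin, and other activators (PSME genes), an inhibitor (PSMF1) and assembly chaperones (PSMG genes) act on the core. Cells in which the proteasome is impaired are known to raise its genes together through the transcription factor NFE2L1, and interferon raises the immunoproteasome subunits PSMB8, PSMB9 and PSMB10, which replace the constitutive catalytic subunits.

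All genes whose symbol is PSM, a letter from A to G and a number were taken from the expression table, 48 of its 23642 gene rows on the main chromosome sequences. They comprised 8 alpha and 11 beta genes of the 20S core, 6 ATPase and 14 non-ATPase genes of the 19S particle, 5 activator or inhibitor genes and 4 assembly chaperone genes. The rule used names alone and no measured value. PSMB8 and PSMB9 also had 14 rows on alternative assemblies of chromosome 6, all listed at 0, which were left out. The members lay on 17 chromosomes, with 8 on chromosome 14 and 7 on chromosome 17.

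The libraries came from HEK-293, an established line of human embryonic kidney origin with some neuronal characteristics. Cells received 10 nM of a single siRNA for 48 h, either si4 or si5 against ZSCAN5A, si1 against ZSCAN5B, or a scrambled negative control, and 1 mRNA library was sequenced per siRNA, 4 in all. ZSCAN5A and ZSCAN5B encode zinc finger proteins, and the study asked which genes differ in expression when either is knocked down. With a single library for each siRNA no difference below has a replicate check, and no test was made. ZSCAN5A was at 30.2% and 29.5% of its control FPKM with si4 and si5, but ZSCAN5B was at 105% with si1, from 16 fragments against 15 (exact 95% Clopper-Pearson interval of the ratio 0.486 to 2.28). With si4 and si5 ZSCAN5B was at 36.6% and 73.4%, from 6 and 17 fragments (intervals of the ratio 0.116 to 0.999 and 0.345 to 1.58). By qRT-PCR the paper reports that si1 lowered ZSCAN5B transcript and that si4 raised it somewhat, unlike the FPKM values here. The same qRT-PCR listed transcript of ZSCAN5D, a related gene, below the scrambled control with si4, si5 and si1. The si1 library is named below by its label, as the library labelled ZSCAN5B knockdown. Expression is in FPKM, the number of fragments from a gene adjusted for its length and for library size. FPKM values hold no library totals, so library sizes were inferred here from weakly expressed genes. The inferred sizes ran from approximately 53700000 fragments in the control to 83000000 with si5. The lowest lies below and the highest above the range of reads per sample that the paper states, and the disagreement was not resolved. The markers VIM, KRT8, KRT18, NEFL and NEFM were at 8.46 FPKM or above in every library and PAX2 was between 0.584 and 1.16 FPKM, while the blood, liver and endothelial markers PTPRC, CD3E, ALB, PECAM1 and CDH5 and the fibroblast marker COL1A2 were at or under 0.0335 FPKM, and CD14, APOA1 and COL1A1 were between 0.0227 and 1.85 FPKM.

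Promoter sequence was read for words of known factors, since NFE2L1 and NFE2L2 bind the antioxidant response element. RefSeq promoters (GRCh38.p14, 250 bases before to 50 after the transcript start) were given for 42 of the 48 genes, 51 promoters in all. Both strands were searched for TGACNNNGC (antioxidant response element core), CCAAT (NF-Y box), GCATGCG (part of the nuclear respiratory factor 1 site), CCGGAAG (ETS) and GGGCGG (SP1). Of 137 matches in member promoters, 4 pairs of words from different motifs shared bases. Promoters of the same gene overlap in PSMA4 and PSMA6, and matches on both strands can overlap, so 137 is not a count of distinct sites.

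The promoters of PSMB3, PSMD1 and PSMB9 are shown because they belong to the constitutive core, the 19S particle and the immunoproteasome, and each holds the antioxidant response element core in a different place. They were chosen after their values and matches had been seen. They lie at chr17:38752491-38752790, chr2:231056617-231056916 and chr6:32853942-32854241 of GRCh38.p14, all on the plus strand, and capitals mark TGACNNNGC and CCAAT words on either strand.
PSMB3: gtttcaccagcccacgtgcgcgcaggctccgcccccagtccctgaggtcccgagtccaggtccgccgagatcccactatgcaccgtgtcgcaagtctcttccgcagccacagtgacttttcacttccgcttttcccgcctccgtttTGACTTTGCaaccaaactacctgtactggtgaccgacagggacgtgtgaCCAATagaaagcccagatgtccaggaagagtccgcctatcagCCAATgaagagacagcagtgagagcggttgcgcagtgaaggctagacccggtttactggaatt
PSMD1: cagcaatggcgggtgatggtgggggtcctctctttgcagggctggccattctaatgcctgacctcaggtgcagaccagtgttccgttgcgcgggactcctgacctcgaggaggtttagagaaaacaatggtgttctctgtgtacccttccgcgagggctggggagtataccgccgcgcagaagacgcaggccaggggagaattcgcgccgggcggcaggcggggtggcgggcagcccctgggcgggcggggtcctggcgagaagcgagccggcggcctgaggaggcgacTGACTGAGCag
PSMB9: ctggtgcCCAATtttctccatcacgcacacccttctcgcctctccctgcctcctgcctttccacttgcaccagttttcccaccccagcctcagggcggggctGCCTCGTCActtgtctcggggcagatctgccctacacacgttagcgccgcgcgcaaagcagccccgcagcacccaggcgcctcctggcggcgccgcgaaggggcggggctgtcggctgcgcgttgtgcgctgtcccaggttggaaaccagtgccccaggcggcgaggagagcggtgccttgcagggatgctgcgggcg
The element began 104 bases before the start in PSMB3, on the plus strand and upstream of a pair of CCAAT words, at base 40 after the start in PSMD1, and 148 bases before the start in PSMB9, on the minus strand.

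Most members had a higher FPKM in every siRNA library than in the scrambled control, but by small steps. Comparing the mean of si4 and si5 with the control, 40 of the 45 members that could be tested were higher, against 46.7% of all 12993 tested genes, and their median log2 ratio was 0.21 against -0.02 for all tested genes. In the library labelled ZSCAN5B knockdown, 44 of 44 were higher, against 48.5% of all tested genes, with a median log2 ratio of 0.28 against -0.01. Taken singly, si4 had 41 of 45 members above the control (background 47.9%) and si5 39 of 45 (background 45%). Genes under 1 FPKM in all libraries compared, or at 0 on either side, were left out. All ratios share the 1 control library, so a low value in that library enters every one of them.

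Few of these differences were large. With si4 and si5, 1 member, PSMB9, was past 1.5-fold, where 0.677% of all tested genes were higher by that much and 3.79% differed in either direction. PSMB9 reached 1 FPKM through si4 and si5 alone, so its entry into the count depended on its higher values there, and PSMB8, under 1 FPKM in all libraries, was not counted. With si1 no member was past 1.5-fold, against 0.844% of all tested genes higher and 4.01% in either direction. By more than 25%, 6 members were higher with si4 and si5 (background 5.14%) and 13 with si1 (background 6.7%). All 6 of the former were 20S genes, and the 13 with si1 were 9 20S and 4 19S genes. The control was the lowest of the 4 libraries for 38 of 45 members, against 30.1% of all genes compared, and the highest for none, against 36.2%.

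**Figure D1:**
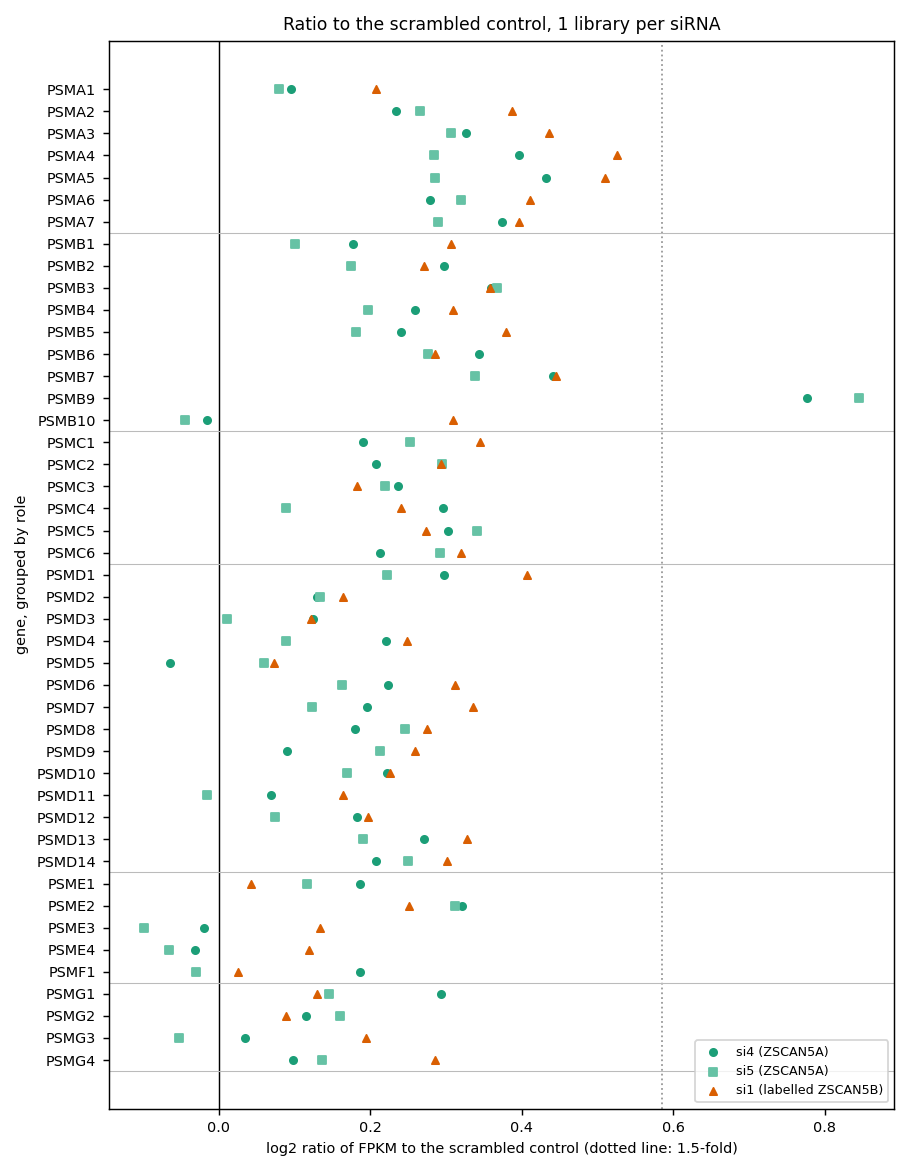
Log2 ratio of FPKM to the scrambled control (horizontal axis) for each tested proteasome gene (vertical axis, grouped by role), with a circle for si4, a square for si5 and a triangle for the library labelled ZSCAN5B knockdown. The dotted line marks 1.5-fold. Most points lie to the right of 0, the triangles of the alpha genes lie farthest right within that class, and PSMB9, drawn for si4 and si5 alone because it did not reach 1 FPKM with si1 or in the control, is the one gene past the line.

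Scaling sets the size of these values. The FPKM of all genes sum to 488036 in the control and to between 537181 and 546239 in the siRNA libraries. When every library was scaled to the same sum, the median of all tested genes moved to -0.18 with si4 and si5 and -0.15 with si1, and 21.2% and 25.9% of all tested genes were above the control. The members then had medians of 0.060 (29 of 45 above the control) and 0.14 (36 of 44). Relative to the median of all genes the members were thus higher under every scaling tried. Against the control itself, 11 members with si4 and si5 and 8 with si1 changed direction. PSMD3, PSME1 and PSMF1 did so in both comparisons, and PSMA1 and PSMB1 with si4 and si5 alone. The 20S genes kept positive medians of 0.15 and 0.24 and the 19S genes of 0.042 and 0.13, while the activators, inhibitor and chaperones together lay below 0, at -0.036 and -0.0083.

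**Figure D2:**
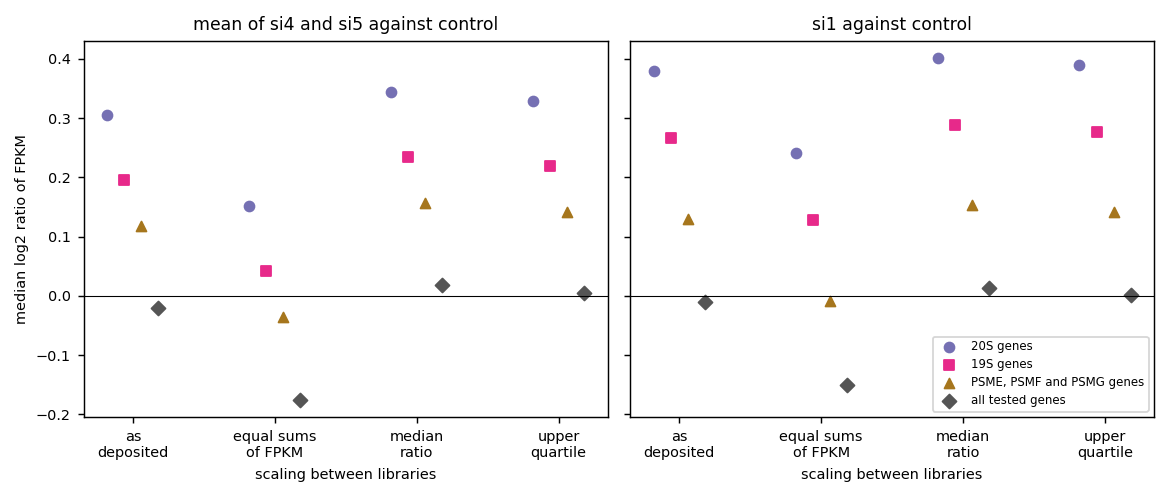
Median log2 ratio of FPKM to the control (vertical axis) for 20S genes, 19S genes, the other proteasome genes and all tested genes under 4 scalings between libraries (horizontal axis), with si4 and si5 on the left and si1 on the right. The order of the 4 groups is the same under each scaling, while equal sums of FPKM move every group down.

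The alpha genes, which form the outer rings and the gate of the core, showed the highest class median. All 7 tested were higher than the control in each of the 3 siRNA libraries, with a median log2 ratio of 0.32 with si4 and si5 and 0.41 with si1. PSMA4, the most abundant alpha gene (chr15:78832747-78841563 of hg19, plus strand), had 312.2 FPKM with si4, 288.8 with si5 and 341.5 with si1 against 237.3 in the control, and PSMA5, the least abundant, had 34.6, 31.2, 36.5 and 25.6 FPKM. These were the genes with the largest ratios of the class, at 0.34 and 0.36 on the log2 scale with si4 and si5 and 0.53 and 0.51 with si1. PSMA1 was closest to the control, with 135.3, 133.8, 146.3 and 126.7 FPKM and log2 ratios of 0.09 and 0.21. The other alpha genes PSMA2, PSMA3, PSMA6 and PSMA7 lay between, from 0.25 to 0.33 with si4 and si5. The library labelled ZSCAN5B knockdown was the highest of the 4 libraries for all 7. PSMA8, an alpha subunit of the testis, was represented by 1 fragment with si5 and none in the other libraries.

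The constitutive beta genes PSMB1 to PSMB7 followed the same direction in every library. PSMB1 was the most abundant of them in the control, at 257.2 FPKM against 290.9, 275.9 and 318.0 with si4, si5 and si1, and PSMB2 the least, at 42.1 against 51.8, 47.5 and 50.8. Their log2 ratios were 0.14 and 0.24 with si4 and si5, and 0.31 and 0.27 with si1. The narrowest spread between siRNAs was in PSMB3, a non-catalytic subunit, at 281.2, 282.7 and 281.0 FPKM against 219.2 in the control. There the 3 siRNA libraries differed from each other by at most 0.620% and each was 1.28 or 1.29 times the control.

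The catalytic beta subunits were read in pairs, each constitutive subunit with the immunoproteasome subunit that replaces it. PSMB5, which carries the chymotrypsin-like activity, had 165.3, 158.7 and 182.1 FPKM with si4, si5 and si1 and 140.0 in the control. PSMB6, the caspase-like subunit, had 201.5, 192.2, 193.4 and 158.7 FPKM in the same order. PSMB7, the trypsin-like subunit (chr9:127115744-127177721, minus strand), had 142.0, 132.2, 142.4 and 104.6 FPKM. In all 3 genes the control was below every siRNA library, and PSMB7 had the largest log2 ratio of the constitutive beta genes, 0.39 with si4 and si5 and 0.45 with si1.

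Their immunoproteasome counterparts were weakly expressed. PSMB8 and PSMB9 are neighbours within the major histocompatibility region of chromosome 6 (chr6:32808494-32812712, minus strand, and chr6:32821938-32827628, plus strand, in hg19). PSMB9 had 1.08 FPKM with si4, 1.13 with si5 and 0.820 with si1 against 0.630 in the control, which the steps between low FPKM values resolved to 58, 86, 41 and 31 fragments. The ratios to the control were 1.71 with si4 (exact 95% Clopper-Pearson interval 1.09 to 2.74) and 1.8 with si5 (1.18 to 2.80). Both ratios rest on the same 31 control fragments. PSMB9 also passed the expression limit only through its values in these libraries, so the intervals are given as description alone. With si1 the ratio was 1.3, with an interval of 0.797 to 2.15 that includes 1. These intervals cover counting error alone and not the difference between cultures.

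PSMB8 had another order of libraries than its neighbour. Its FPKM was 0.413, 0.462 and 0.757 with si4, si5 and si1 and 0.450 in the control, resolved to 24, 38, 41 and 24 fragments. Its ratios were 0.916 with si4 (interval 0.498 to 1.68), 1.03 with si5 (0.599 to 1.79) and 1.68 with si1 (0.992 to 2.91), all of which include 1. PSMB10 was the most abundant of the immunoproteasome subunits, at 4.00, 3.92, 5.01 and 4.04 FPKM, so that si4 and si5 lay just under the control (log2 ratio -0.03) and si1 above it (0.31). Its counting error on a log2 ratio was about 0.14 with si4 and 0.13 with si5 and si1. PSMB11, the thymus subunit, had 1 fragment with si4 and 1 with si1.

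The constitutive subunits prevailed in all libraries. PSMB5 exceeded PSMB8 by 401, 344, 240 and 311 times with si4, si5, si1 and in the control, PSMB6 exceeded PSMB9 by 187, 170, 236 and 252 times, and PSMB7 exceeded PSMB10 by 35.5, 33.7, 28.4 and 25.9 times. The pairs therefore differed in their order of libraries, with the control the highest for PSMB6 over PSMB9 and the lowest for PSMB7 over PSMB10. The ratios to PSMB8 and PSMB9 rest on 24 to 86 fragments of these genes per library, and the orders were not tested.

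**Figure D3:**
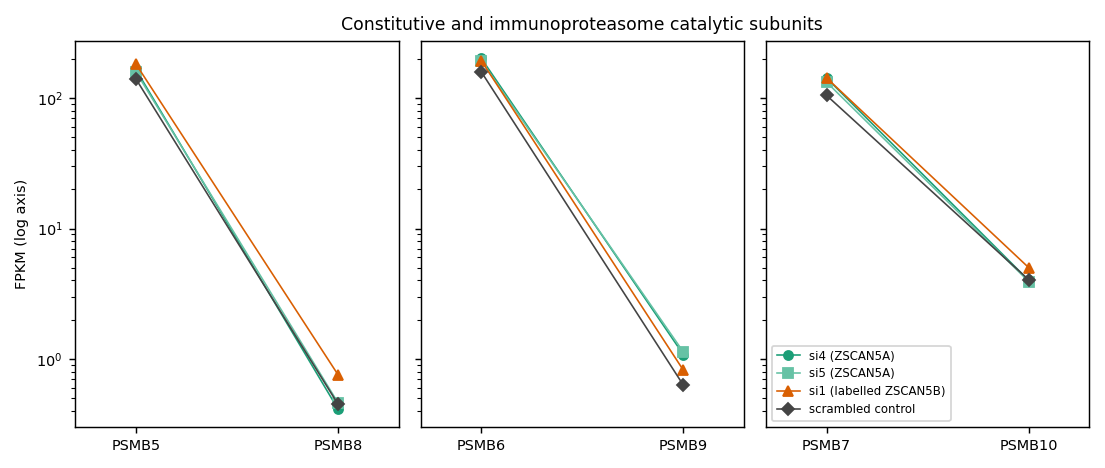
FPKM (vertical log axis) of the constitutive and the immunoproteasome subunit of each catalytic position, with a line for each library. All lines descend steeply, the control is the lowest point for PSMB5, PSMB6 and PSMB7, and at PSMB8 the library labelled ZSCAN5B knockdown stands above the other 3.

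The ATPase genes, which drive unfolding, formed the narrowest class. All 6 were above the control in every siRNA library, with log2 ratios from 0.20 to 0.32 with si4 and si5 (median 0.24) and from 0.18 to 0.35 with si1 (median 0.28). PSMC5 (chr17:61904770-61909387, plus strand) had the largest ratio with si4 and si5, at 138.1 and 141.8 FPKM against 112.0 in the control and 135.4 with si1. PSMC4, the most abundant, had 214.9 FPKM with si4 but 186.1 with si5, with 206.7 with si1 and 175.0 in the control, so the libraries of the same target differed by more (log2 0.21) than si5 differed from the control (0.09). PSMC6 was the least abundant, at 44.3, 46.8, 47.7 and 38.2 FPKM.

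Among the 14 non-ATPase genes, 13 were higher than the control with si4 and si5 (median log2 ratio 0.16) and all 14 with si1 (0.25). PSMD1, one of the large scaffold subunits (chr2:231921578-232037540, plus strand), was highest by ratio, with 65.9, 62.6 and 71.1 FPKM against 53.6 in the control and log2 ratios of 0.26 and 0.41. PSMD8 (chr19:38865190-38874464, plus strand) was the most abundant of all members, at 354.7, 371.1, 378.9 and 313.1 FPKM. PSMD5, a chaperone of 19S assembly, was the least abundant 19S gene and did not differ between siRNA and control in a single direction, at 9.69, 10.6, 10.7 and 10.1 FPKM. PSMD11, of the lid that covers the ATPase ring, was likewise split, at 79.6 and 75 FPKM with si4 and si5, 85 with si1 and 75.9 in the control. The ubiquitin receptor gene PSMD4 had log2 ratios of 0.16 and 0.25 and the deubiquitinase gene PSMD14 of 0.23 and 0.30.

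**Figure D4:**
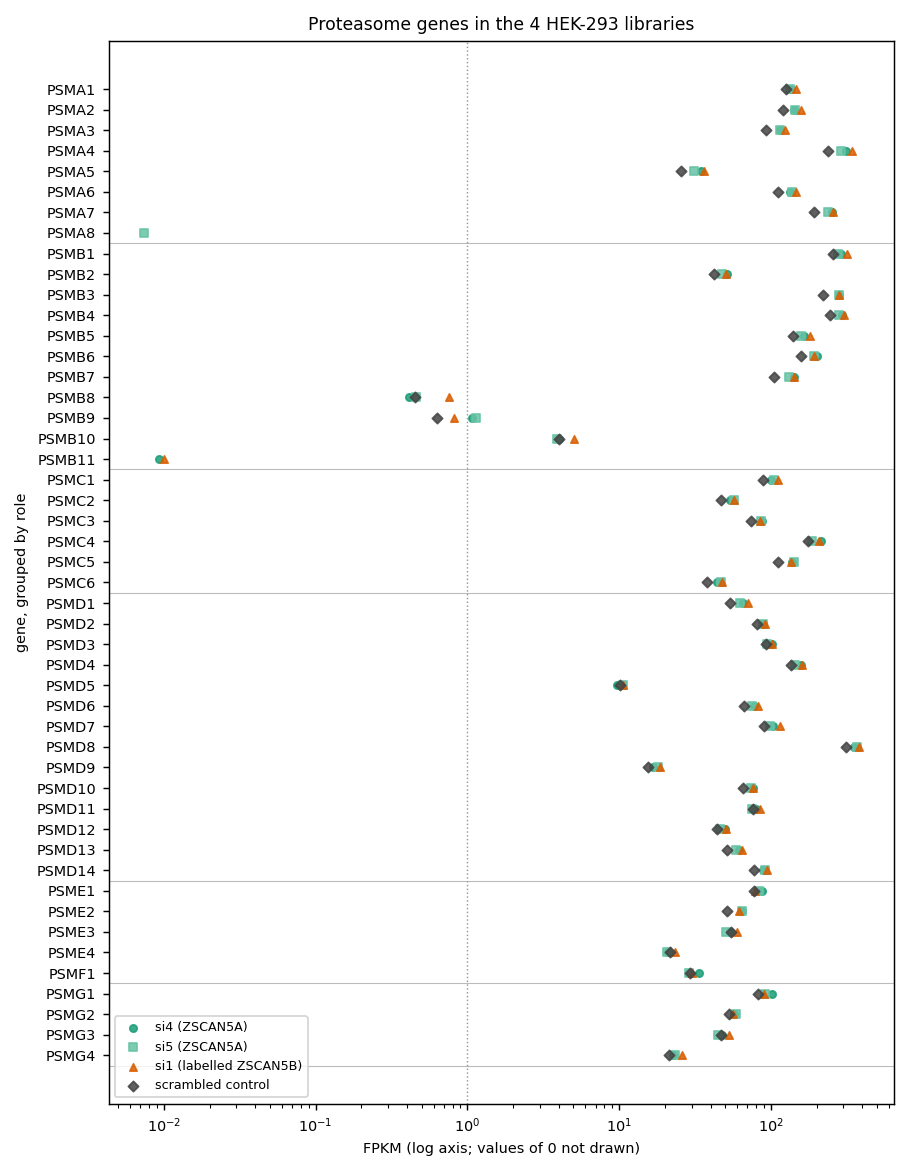
FPKM (log axis) of every member in the 4 libraries, grouped by role, with values of 0 not drawn and the dotted line at 1 FPKM. Differences between genes span several powers of 10, from single fragments of PSMA8 and PSMB11 to 313.1 to 378.9 FPKM for PSMD8, and are far wider than differences between libraries of a gene.

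Levels within a complex were unequal in all libraries. In the control the alpha genes without PSMA8 had a median of 120.5 FPKM with a 9.26-fold range, and the constitutive beta genes a median of 158.7 with a 6.11-fold range. The ATPases had a median of 81.2 FPKM with a 4.58-fold range, and the non-ATPases a median of 71.2 with a 30.9-fold range, from PSMD5 to PSMD8. Summed over genes, 20S exceeded 19S 1.22 times in the control and 1.3, 1.28 and 1.31 times with si4, si5 and si1. The 48 genes together made up 0.865% of the control FPKM and 0.918%, 0.901% and 0.970% of the si4, si5 and si1 FPKM.

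The 20S genes stood above the 19S genes in their ratio to the control. Their medians were 0.30 against 0.20 with si4 and si5, a difference of 0.11 on the log2 scale, and 0.38 against 0.27 with si1, again a difference of 0.11. The 20S median covers 16 genes with si4 and si5, PSMB9 among them, and 15 with si1, without PSMB9. At a limit of 5 FPKM in a library, which PSMB9 did not reach, the difference with si4 and si5 was also 0.11. With si4 or si5 alone the difference was 0.10, and without the 19S assembly chaperones PSMD5, PSMD9 and PSMD10 it was 0.092 and 0.10. Genes of the same complex are not replicates, and the difference was not tested.

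The classes also differ in coding length, and the ratios of all genes followed length. The median coding length was 750 bases for 20S genes and 1236 for 19S genes. Over all tested genes the median log2 ratio with si4 and si5 went from 0.14 in the shortest of 10 equal groups by coding length to -0.17 in the longest, and with si1 from 0.15 to -0.17. When the median of each length group was subtracted, the members were above 0 in 41 of 45 and 42 of 44 cases, with medians of 0.18 and 0.24. Of all genes with a coding length, 49.99% and 49.97% were then above 0, a share that the subtraction sets. The difference between 20S and 19S was then 0.044 and 0.059.

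The 19S genes closest to the core genes in length gave a further view. PSMD7, PSMD9, PSMD10 and PSMD14, with 669 to 972 coding bases, had medians of 0.18 and 0.28. The 16 longer 19S genes had 0.20 and 0.26, and the 20S genes of 603 to 831 bases had 0.30 and 0.38. PSMD7 and PSMD14, at 972 and 930 bases, were longer than every tested 20S gene. PSMD9 and PSMD10 are the 19S assembly chaperones named above. The comparison is therefore not matched in length for subunits of the particle, and no conclusion is drawn from it. Correcting for the length and GC content of transcripts in place of coding length left differences between 20S and 19S of 0.080 and 0.069, and brought the members' medians to 0.10 and 0.17. How much of the difference goes with length was not tested further.

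**Figure D5:**
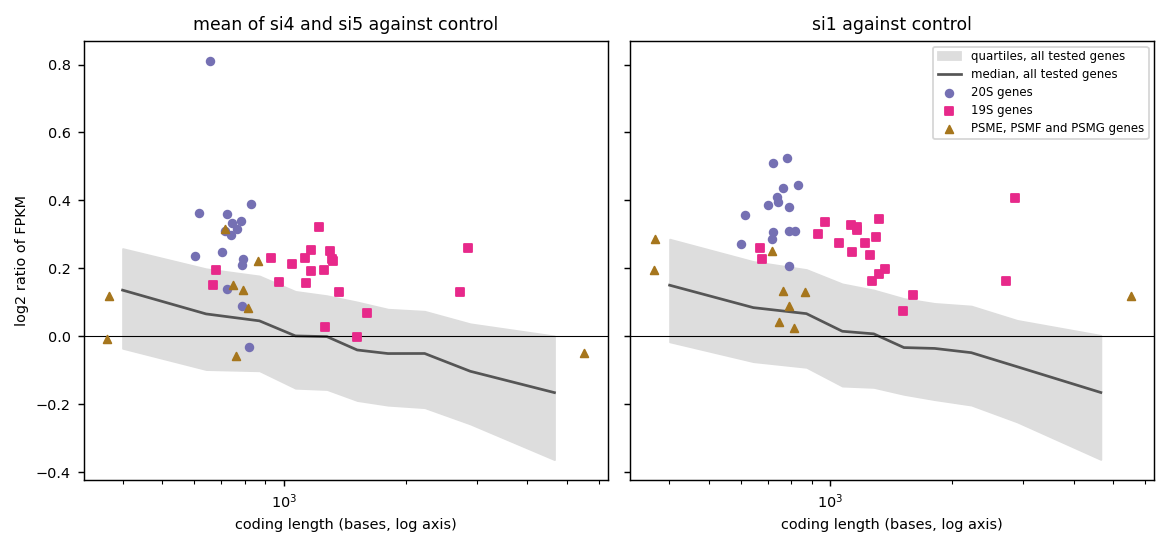
Log2 ratio of FPKM to the control (vertical axis) against coding length in bases (horizontal log axis), for si4 and si5 on the left and si1 on the right. The line is the median and the grey band the quartiles of all tested genes in 10 groups of length, and most 20S and 19S points lie above the band while the PSME, PSMF and PSMG genes lie mostly within it.

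The activator, inhibitor and chaperone genes stayed closer to the control. PSME1 and PSME2 encode the interferon-inducible activator PA28, whose genes are neighbours on chromosome 14. PSME2 had 64.5, 64.1, 61.5 and 51.7 FPKM with si4, si5, si1 and in the control, with log2 ratios of 0.32 and 0.25, and PSME1 had 87.4, 83.3, 79.1 and 76.8 FPKM, with log2 ratios of 0.15 and 0.04. For both genes si4 was the highest library and the control the lowest.

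PSME3, the nuclear activator, was at 53.5 and 50.7 FPKM with si4 and si5, 59.5 with si1 and 54.3 in the control. PSME4, the activator PA200, was at 21.1 and 20.6 with si4 and si5, 23.4 with si1 and 21.5 in the control. In both genes si4 and si5 lay under the control and si1 over it. The inhibitor gene PSMF1 was at 33.6, 28.9, 30.0 and 29.5 FPKM, so that si4 alone stood apart and the log2 ratio of si1 was the smallest of all members, 0.03.

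The chaperones of 20S assembly had a median log2 ratio of 0.13 with si4 and si5 and 0.16 with si1. PSMG1 was at 101.0, 91.2, 90.3 and 82.5 FPKM and PSMG2, its partner, at 57.0, 58.9, 56.0 and 52.7. PSMG3 was at 47.7, 44.9, 53.3 and 46.6 FPKM and PSMG4 at 22.7, 23.3, 25.9 and 21.2. The control was the lowest library for PSMG1, PSMG2 and PSMG4, and for PSMG3 it lay between si5 and si4.

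The library labelled ZSCAN5B knockdown had the highest values for 31 of 45 members, against 22% of all genes compared. Set directly against the mean of si4 and si5, without the control, it was higher in 35 of 45 members (background 53.8%), with a median log2 ratio of 0.074 against 0.012 for all genes. The medians were 0.12 for 20S genes and 0.070 for 19S genes, and -0.049 for the remaining members, of which 4 of 9 were higher. The si4 and si5 libraries, which share their target, had si4 the higher in 30 of 45 members (background 54.6%) with a median log2 ratio of 0.059, and single genes differed between them by a median absolute log2 of 0.069 over the members and 0.091 over the 3621 genes at 20 FPKM or above in both. For the 44 members that reached 5 FPKM in a library, approximately 212 to 104954 fragments per library gave a counting standard error of the log2 ratio between 0.0076 and 0.14, with a median of 0.022.

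Other genes of the pathway, taken from a list of 48 genes present in the table, were less uniform. Of 45 tested, 27 were higher and 18 lower in each comparison, with medians of 0.054 with si4 and si5 and 0.047 with si1. Of all tested genes 46.7% and 48.5% were higher, and these shares are also the background for the sublists below. The listed genes were not matched to the members in coding length, which the ratios of all genes followed. TAPBP, which loads peptides onto class I molecules, was past 1.5-fold and lower with si4 and si5, where 3.11% of all tested genes were, at 7.0 and 8.65 FPKM against 13.8 in the control and 9.27 with si1. No listed gene was past 1.5-fold with si1.

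Among the 12 genes listed as factors that bind or assemble the proteasome, POMP, the chaperone that matures the 20S core, was highest with si4 and si5. It was at 63.5, 61.2, 64.3 and 49.5 FPKM with si4, si5, si1 and in the control (log2 ratios 0.33 and 0.38). USP14, a deubiquitinase of the 19S particle, was lowest at -0.26, from 37.6 and 26.0 FPKM with si4 and si5 against 38.2 in the control, so that si5 alone was far from it. With si1 the highest of the listed genes was TXN at 0.43 and the lowest UBE3C at -0.31. TXN encodes thioredoxin, a general redox protein rather than a proteasome factor, and was listed beside TXNL1. All 6 genes of ubiquitin and its activation were higher in both comparisons (medians 0.17 and 0.15), the lowest with si4 and si5 being UBA1 at 0.04.

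The genes listed as transcription factors of proteasome genes, with regulators of those factors, were less uniform than the members. In each comparison 5 of 8 were higher, with medians of 0.031 and 0.040. NFE2L1 was at 36.1, 50.1, 41.9 and 51.8 FPKM with si4, si5, si1 and in the control, lowest with si4 and in no siRNA library above the control, with log2 ratios of -0.26 and -0.30. DDI2, the protease that activates the NFE2L1 protein, was the lowest of the group with si4 and si5 at -0.29, and MAFK the highest at 0.15. These are transcript levels, and NFE2L1 is known to be controlled largely as a protein. Of 9 shuttle and p97 factors UFD1L was highest at 0.30 and UBQLN2 lowest at -0.31. Of 10 antigen processing genes, 5 were higher with si4 and si5 and 3 with si1. HLA-C was the highest of them with si4 and si5, at 0.08, and TAP1, which lies between PSMB8 and PSMB9, was at 15.3, 13.7, 14.9 and 13.8 FPKM.

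TGACNNNGC was in 15 of the 51 member promoters (29.4%) and in 13.3% of all 35116 promoters, and CCGGAAG in 29.4% against 10.3%. The other words were in 68.6% against 45.0% (GGGCGG), 39.2% against 34.6% (CCAAT) and 5.88% against 3.91% (GCATGCG). By gene, TGACNNNGC was in 3 of 15 20S genes and 7 of 19 19S genes, CCGGAAG in 2 of 15 and 10 of 19, and CCAAT in 9 of 15 and 9 of 19. A match is a description of letters and not of binding.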

How the data were processed

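RNA of HEK-293 cells treated with 1 of 4 siRNAs was sequenced, 1 library each. Per the labels and methods, reads were processed with CASAVA 1.8.2, Trimmomatic 0.30, TopHat2 2.1.0 and Cufflinks 2.2.1 on hg19, and the authors deposited 1 table of FPKM values, used here as deposited. The number of other per-sample columns is 0. Labels and methods name different library kits, both for stranded mRNA. Loci in the table start from 0 and were raised by 1.

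Ratios of mean FPKM were compared without a test, for genes at 1 FPKM or above in at least 1 library of the comparison and at 0 on neither side, and called past 1.5-fold. FPKM keeps no totals, so fragments were read from the steps of low values, as whole-number proportions up to 150 within 0.05%. Such proportions were found for 44.1% of 2257 genes, and for 3.63% after 5% noise was added. Fragments of other members are approximate. No fold was computed against 3 fragments or fewer, the floor. Coding length came from GENCODE lifted to GRCh37 (12007 of 12993 tested genes, 92.4%, and all 48 members), and promoters from RefSeq.

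Named genes were the catalytic subunits and their counterparts, members past 1.5-fold or under 1 FPKM, the extremes of level and ratio in each class, PSME and PSMG genes, and of the pathway list the genes past 1.5-fold and the extremes of each sublist, of which 1 is not reported here. PSMA2, PSMA3, PSMA6, PSMA7, PSMB3, PSMD4, PSMD11, PSMD14, NFE2L1, TAP1 and the printed promoters were named after their values were seen. The members and lists were chosen with earlier results of these data known. Alternatives covered pseudocounts, expression and fold limits, 3 scalings, each ZSCAN5A siRNA alone and coding length. Correcting for the length and GC content of transcripts and the removal of PSMD5, PSMD9 and PSMD10 were added after seeing the data. Scripts were tested on simulated data. Python 3.11.15, NumPy 2.4.6, pandas 2.3.3, SciPy 1.17.1 and matplotlib 3.10.9 were used.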

Additional observations from a re-analysis of the deposited data

Results flagged for a closer look

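In 3 genes, si4 and si5 lay on one side of the control and the library labelled ZSCAN5B knockdown on the other, and the difference between the siRNAs was not tested. PSMB10 had a log2 ratio of 0.31 with si1, against -0.02 with si4 and -0.04 with si5. PSME3 had 0.13 with si1, against -0.02 and -0.10. PSME4 had 0.12 with si1, against -0.03 and -0.07. Under equal sums of FPKM the si1 values of PSME3 and PSME4 were also below the control, at -0.0054 and -0.02. Under median-ratio scaling the pattern did not hold for PSMB10, whose mean of si4 and si5 was above the control at 0.0081, nor for PSME3 and PSME4 with si4, since 9 of 9 activator, inhibitor and chaperone genes were then above the control in that library.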

How the results depend on the processing

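No paired analysis was possible because the groups hold 1 library each and share fewer than 2 replicate numbers. Neither the median of all proteasome genes nor the difference of 20S and 19S changed direction under any alternative run. The median of the proteasome genes with si4 and si5 (0.21) was 0.060 with equal sums of FPKM, 0.25 with median-ratio scaling, 0.18 with si5 alone, 0.18 corrected for coding length and 0.10 corrected for transcript length and GC content. With si1 (0.28) it was 0.14 with equal sums, 0.24 corrected for coding length and 0.17 for transcript length and GC content. The count past 1.5-fold with si4 and si5 (1) was 0 with a pseudocount of 1 FPKM, 0 with at least 5 FPKM, 6 at a limit of 25% and 0 at 2-fold, and with si1 (0) it was 1 without an expression limit, PSMB8, and 13 at a limit of 25%. The median of 20S minus that of 19S with si4 and si5 (0.11) was 0.10 without an expression limit, with si4 alone and with si5 alone, 0.044 corrected for coding length, 0.080 for transcript length and GC content, and 0.092 without PSMD5, PSMD9 and PSMD10. With si1 (0.11) it was 0.12 with a pseudocount of 1 FPKM, 0.059 and 0.069 under the corrections and 0.10 without those genes. The cause of these shifts was not tested. With 1 control library, a low control and a response to siRNA cannot be told apart, and under 1 FPKM depth limits PSMB8, PSMB9, PSMA8 and PSMB11.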
